A study of Mus musculus with 2 samples.

Results

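The 40 genes described here encode protein subunits of the mitochondrial respiratory chain and cytochrome c, taken from a list of oxidative phosphorylation genes and all found among the 31053 features of both count matrices. Of these, 13 are encoded by the mitochondrial genome (symbols beginning mt-, including mt-Atp6 and mt-Atp8 of the ATP synthase) and 27 by nuclear chromosomes. Single cells had been sorted from heart for CD45, the surface protein of leukocytes, in wild-type C57BL/6 mice aged 10 weeks. The sham group had the control operation and the TAC group had transverse aortic constriction, a narrowing of the aorta that loads the left ventricle with pressure. The series design gives 6 mice per group, but each group is 1 droplet library, and no label assigns a barcode to a mouse. No difference below therefore has a replicate check or a p-value, and condition and library cannot be told apart.

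The respiratory chain passes electrons from NADH and succinate to oxygen through complexes I, II, III and IV and the mobile carrier cytochrome c, and the proton gradient it builds drives ATP synthase. Complexes I, III and IV are mosaics: their core hydrophobic subunits are translated inside the organelle from mitochondrial messenger RNAs, while most other subunits, and all of complex II and cytochrome c, are made from nuclear genes and imported. In macrophages the balance between oxidative phosphorylation and glycolysis is known to shift with the state of activation, and succinate oxidation at complex II is among the regulated steps.

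Depth differed between the libraries. Sham had 87532984 unique molecular identifiers (UMIs, the counted molecules) over 11941 barcodes (median 6280), and TAC had 97983083 over 7975 (median 9781). Among barcodes with at least 300 detected genes, 39.9% of the sham barcodes and 75.3% of the TAC barcodes had a mitochondrial share of at most 10% of UMIs, and 47.6% and 14.3% had a share over 10 to 25%. Barcodes were put in classes by the summed UMIs of 8 markers, which makes a class a range of a marker score, not a cell type. The macrophage gate (C1qa, C1qb, C1qc, Csf1r, Adgre1, Mrc1, Cd68 and Fcgr1) held 3319 sham and 3245 TAC barcodes at a share of at most 10%, with median depths of 9207 and 15199 UMIs, and 4034 and 629 barcodes over 10 to 25%, with medians of 6198.5 and 3623. A UMI of Ptprc, the CD45 gene, was present in 92.3% and 96.4% of the macrophage-gate barcodes in the lower range, but in only 2.28% to 10.1% of the endothelial- and fibroblast-gate barcodes, although the label is CD45+. The libraries had 35 barcode sequences in common, 0.293% of the sham and 0.439% of the TAC barcodes. Levels are UMIs per 1000000 non-mitochondrial UMIs, written CPM, so that the mitochondrial share does not enter the denominator, and the 95% intervals cover counting error only.

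In macrophage-gate barcodes with a mitochondrial share of at most 10%, nuclear respiratory chain messages were higher in the TAC library for nearly every member, while all 13 mitochondrial messages were lower. The level of the mitochondrial messages is limited by the rule on mitochondrial share and is a description. The ratio TAC over sham was above 1 for 25 of 27 nuclear members, against 40.1% of all 13435 non-mitochondrial genes with at least 20 UMIs and 55.2% of the 2609 genes at 50 or more CPM. The median log2 ratio was 0.33 over the nuclear members, -0.15 over all genes and 0.06 over the abundant genes. Counts past 1.5-fold use the log2 ratio with 0.5 UMIs added to each count, here and below. At least 1.5-fold higher were 4 of the 27 (Cycs, Cox5a, Cox5b and Cox7b), against 12.2% of all genes, and 0 were 1.5-fold lower, against 24.3%. The count of 4 is close to the background share and is no result about the members. The summed level of the 27 was 5840 CPM in sham and 7522 in TAC, 1.29-fold higher. Per barcode, the median sum was 55.1 per 10000 non-mitochondrial UMIs in sham (10th to 90th percentile 38.4 to 77.3) and 71.1 in TAC (48.6 to 96.4), so the distributions overlapped widely.

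**Figure D1:**
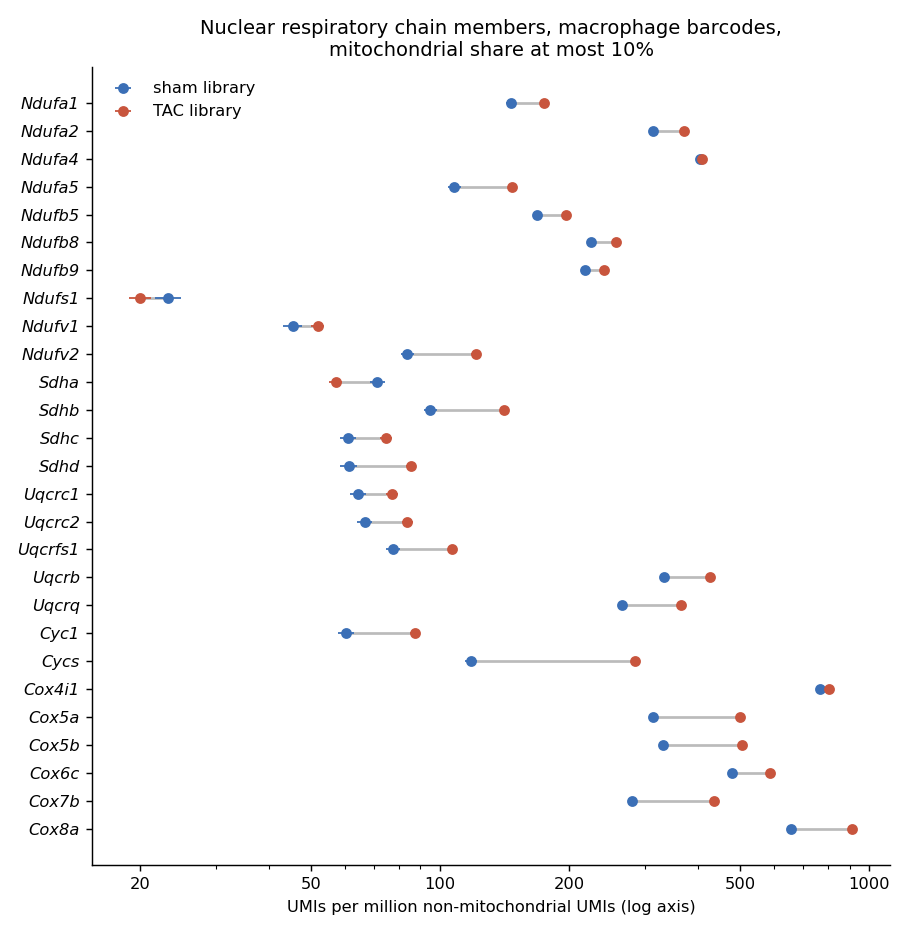
Level of each of the 27 nuclear members in macrophage-gate barcodes with a mitochondrial share of at most 10%, in CPM on a log axis, grouped by complex, with 1 point per library and 95% Poisson intervals. Cycs has the widest gap, 118 in sham and 285 in TAC, and Sdha and Ndufs1 are the members with the TAC point to the left.

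Cycs, the somatic gene of cytochrome c, which carries electrons from complex III to complex IV and is also a trigger of apoptosis when released, had the highest ratio. Its level was 118 CPM in sham and 285 in TAC, a ratio of 2.41 (2.33 to 2.5). The gene lies on the minus strand at chr6:50562563-50566538 (GRCm38), and the annotation names 2 pseudogenes after it, so reads from near-identical copies make its count uncertain. Its promoter is shown because Cycs is the member farthest from the others. The sequence is from RefSeq (GRCm38.p6, chr6:50566570-50566819, minus strand) and covers the 250 bases before RefSeq's start of the gene, which differs from the end of the GENCODE gene model given above. Capitals mark the cyclic AMP response element TGACGTCA, which begins 169 bases before the start, and the core motif of nuclear respiratory factor NRF-1, GCGCATGCG, present as its reverse complement and beginning 61 bases before the start.
Cycs: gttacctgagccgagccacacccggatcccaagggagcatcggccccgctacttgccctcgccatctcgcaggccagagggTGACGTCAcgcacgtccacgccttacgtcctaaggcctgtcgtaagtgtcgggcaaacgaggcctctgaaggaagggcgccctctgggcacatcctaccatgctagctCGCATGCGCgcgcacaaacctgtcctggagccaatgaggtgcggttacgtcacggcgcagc

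Both motifs were searched on both strands in the same window of 27025 genes, where GCGCATGCG occurred in 1.64% and TGACGTCA in 1.77%. Chromosome 18, where Ndufa2 lies, was left out of the search. Of the 27 nuclear members, 17 had a promoter among those searched. GCGCATGCG was found only in Cycs, and TGACGTCA in Cycs and Uqcrfs1. The ETS-family core CCGGAAG, found in 7.83% of genes, was found in Sdhd alone. These matches describe the sequence and were not tied to the counts. Nrf1, the gene of NRF-1, had 20.5 CPM in sham and 13.3 in TAC. Gabpa, an ETS-family regulator of nuclear respiratory genes, had 23.5 and 15.3. Their part in the level of Cycs was not tested.

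Complex IV, cytochrome c oxidase, reduces oxygen to water. Its nuclear members with Cox symbols had the highest median log2 ratio of the 4 complexes, 0.54, with all 6 ratios above 1. Ndufa4 is grouped by its symbol with complex I below. Cox5a, whose product sits on the matrix side of the enzyme (chr9:57521274-57532426), had 314 CPM in sham and 500 in TAC, a ratio of 1.60 (1.56 to 1.63). Cox5b, a zinc-binding subunit (chr1:36691449-36693681), had 331 and 506, a ratio of 1.53 (1.495 to 1.56). Cox7b, a small membrane subunit (chrX:106015700-106022450), had 280 and 435, a ratio of 1.55 (1.52 to 1.59). All 3 were higher in the TAC library with intervals well above 1. The remaining subunits differed less: Cox8a had 658 and 911 (log2 ratio 0.47) and Cox6c 480 and 588 (0.29). Cox4i1, the ubiquitous form of the regulatory subunit 4, had 769 and 806, a ratio of 1.05 (1.03 to 1.07).

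In complex III, which moves electrons from ubiquinol to cytochrome c, all 6 members were higher in the TAC library, with a median log2 ratio of 0.41. Cyc1, the haem-bearing cytochrome c1, had 60.5 CPM in sham and 87.5 in TAC (log2 ratio 0.53), and Uqcrfs1, the Rieske iron-sulphur protein, had 77.6 and 107 (0.46). Uqcrq and Uqcrb, small subunits of the complex, had 265 and 365 (0.46) and 332 and 426 (0.36). The core proteins were nearer to 1: Uqcrc2 had 66.7 and 83.9 (0.33), and Uqcrc1 had 64.3 and 77.3 (0.26).

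Complex II, succinate dehydrogenase, was split. Sdhb, its iron-sulphur subunit, had 94.97 CPM in sham and 141 in TAC, a ratio of 1.49 (1.43 to 1.55), and the membrane anchors Sdhd and Sdhc had 61.2 and 85.5 (log2 ratio 0.48) and 60.9 and 74.8 (0.30). Sdha, the flavoprotein that oxidises succinate, went the other way with 71.4 and 57.1, a ratio of 0.799 (0.758 to 0.843). Within 1 complex of 4 subunits, 3 intervals were thus above 1 and 1 was below.

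Complex I, NADH dehydrogenase, had the lowest median of the 4 complexes, 0.21 over the 10 members with Nduf symbols, Ndufa4 included. This place holds for the listed members only, and the other complex I subunits, given below, had a higher median. Ndufv2, a core iron-sulphur subunit of the NADH-binding arm, was highest with 83.9 CPM in sham and 121 in TAC, a ratio of 1.44 (1.38 to 1.51), followed by the accessory subunit Ndufa5 with 108 and 147 (log2 ratio 0.44). The accessory subunits Ndufa1, Ndufa2, Ndufb5, Ndufb8 and Ndufb9 had log2 ratios of 0.26, 0.24, 0.22, 0.20 and 0.15, from sham levels of 146, 314, 169, 224 and 218 to TAC levels of 175, 371, 196, 258 and 241. Ndufv1, the flavin-bearing partner of Ndufv2, had 45.4 and 51.8 (0.19). Ndufs1, the largest core subunit, was lower in the TAC library with 23.2 and 19.98, a ratio of 0.861 (0.784 to 0.945). Ndufa4, named for complex I but now known as a subunit of complex IV, had 404 and 407, and its ratio of 1.01 had an interval that spans 1 (0.986 to 1.03).

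Ndufa4 has a paralogue, AA467197 (chr2:122636986-122641191), which is known to take its place in complex IV during inflammation. AA467197 had 9.28 CPM in sham and 68.2 in TAC, a ratio of 7.35 (6.54 to 8.27), the highest among the isoforms listed beside the members, while Ndufa4 itself was level. In macrophage-gate barcodes over 10 to 25% AA467197 had 2.87 and 68.9, and in endothelial-gate barcodes 15.7 and 124 in the lower and 4.58 and 94.6 in the upper range. Fibroblast-gate barcodes held 0 UMIs of AA467197 in sham and 89 in TAC, at least 12.0-fold higher if the sham barcodes are set at 3 counts. Neutrophil-gate barcodes over 10 to 25% had the same level of AA467197 in both libraries, 115 and 114, with an interval of the ratio from 0.579 to 1.75. The median of the neutrophil markers per 10000 UMIs was 0 in sham and 2.08 in TAC in the fibroblast-gate barcodes, and 0 and 10.8 in the endothelial-gate barcodes of the upper range, and its part in the AA467197 levels was not tested.

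Acod1, the enzyme that makes itaconate, an inhibitor of succinate dehydrogenase, had 27.8 CPM in sham and 127 in TAC in macrophage-gate barcodes of the lower range, a ratio of 4.55 (4.25 to 4.87), and 10.3 and 151 in those of the upper range. In neutrophil-gate barcodes Acod1 was far higher and did not differ beyond counting error, with 2414 and 2301. Ucp2, an inner-membrane carrier, had 426 and 710 (ratio 1.67), and Nos2, whose product nitric oxide competes with oxygen at complex IV, had 6 UMIs in sham and 40 in TAC (ratio 4.12, 1.74 to 11.9). Of the 7 listed inhibitors and carriers, 3 were at least 1.5-fold higher and 0 lower, where 12.2% and 24.3% of all genes were.

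Marker lists of other cell types moved within the same macrophage-gate barcodes, where 12.2% of all genes were at least 1.5-fold higher and 24.3% lower. All 6 monocyte markers were at least 1.5-fold higher in the TAC library, with a summed level of 79.4 CPM in sham and 752 in TAC, and 6 of 8 neutrophil markers were, with 761 and 2414. Of 13 cardiomyocyte markers 8 were at least 1.5-fold lower, with 165 and 97.0 in sum. All 4 platelet markers (Pf4, Ppbp, Itga2b and Gp9) were, with 4378 and 1249. None of these markers was at 0. Per barcode, the median of the platelet markers per 10000 non-mitochondrial UMIs was 40.5 in sham and 6.56 in TAC. That median was 0 in the compared neutrophil-, fibroblast- and endothelial-gate barcodes of both libraries. The heat-shock and immediate-early genes, which respond to tissue digestion, were all 12 at least 1.5-fold lower in the TAC library, by up to 12.0-fold for Hspa1b (1698 and 141), with Hspa1a at 2958 and 404, Dnajb1 at 480 and 70.2 and Hspb1 at 762 and 127. An alternative kept only barcodes with fewer than 5 monocyte-marker UMIs per 10000 non-mitochondrial UMIs, called without monocyte markers below. There the median log2 ratio of the nuclear members was 0.33, with 25 of 27 above 1. It was 0.38 among macrophage-gate barcodes with the resident-macrophage genes Lyve1, Folr2, Timd4 and Cd163 (5 or more UMIs per 10000 in sum) and 0.31 among those without, and 0.24 with 22 of 27 above 1 when only barcodes of 5000 to 15000 non-mitochondrial UMIs were used, a window within which depths were not matched further. AA467197 and Acod1 had log2 ratios of 3.01 and 1.87 in the barcodes under the monocyte-marker limit, against 2.87 and 2.18 in all. Over 17 alternatives AA467197 lay between 2.09 (barcodes without resident-macrophage genes) and 3.48 (barcodes thinned to 1000 UMIs). The part of neutrophil RNA, platelet-marker RNA and digestion in these ratios was not tested.

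Among the other genes of the pathway, structural subunits mostly had ratios above 1. The background for the lists below is the same as for the members: 40.1% of all genes had a ratio above 1, 12.2% were at least 1.5-fold higher and 24.3% lower. Of 27 other complex I subunits, 25 had a ratio above 1 and 2 were at least 1.5-fold higher, the accessory subunit Ndufa12 (98.6 and 160) and the core subunit Ndufs3 (66.6 and 101), with a list median of 0.36. All 16 of 17 nuclear ATP synthase subunits that had enough UMIs were above 1, with a median of 0.41, and Atp5g1, a gene of the membrane rotor subunit c, had 234 and 370. Other subunits of complex IV (5, median 0.43) and complex III (3, median 0.15) had none past 1.5-fold. Over these other subunits complex III, not complex I, had the lowest median, so that place depends on which subunits are listed. Of 77 mitochondrial ribosomal proteins 72 were above 1 (median 0.33) and 8 were at least 1.5-fold higher, no more than the background share, led by Mrps28 (25.3 and 46.5), Mrps18b (18.6 and 30.1), Mrpl32 (40.0 and 64.6) and Mrpl13 (48.9 and 78.9). Cytosolic ribosomal proteins had a median of -0.06 over 84, with only the muscle-type Rpl3l past 1.5-fold on 26 and 78 UMIs.

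Assembly factors had a median of 0.11 over 45, and 5 were at least 1.5-fold higher, close to the background of 12.2%, and 0 lower. The 5 were Coa5 (36.5 CPM in sham and 63.2 in TAC), the copper chaperone Cox17 (99.9 and 157), the mt-Co1 translation activator Taco1 (2.23 and 3.53), the insertase Cox18 (6.78 and 10.4) and Coa7 (9.28 and 14.0). The machinery that replicates and expresses the mitochondrial genome was evenly split, 14 above and 14 below 1. In that list Slirp, which stabilises mitochondrial messenger RNAs, had 69.3 and 111. The DNA polymerase subunits Polg (23.4 and 13.2) and Polg2 (9.16 and 3.82) and the helicase Twnk (4.43 and 2.39) were the only genes of that list at least 1.5-fold lower. Their share of the list is below the background of 24.3% and is no result about the list. The 7 measured biogenesis regulators had a median of 0.02 with 2 at least 1.5-fold lower, Nrf1 and Gabpa, close to the background of 24.3%.

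Among 12 quality-control genes 3 were at least 1.5-fold lower, close to the background of 24.3%, and 0 higher. Pink1, the kinase that marks damaged mitochondria for removal, had 52.5 CPM in sham and 18.3 in TAC. Park2, the ubiquitin ligase it recruits, had 3.18 and 0.533, and the mitophagy receptor Bnip3l had 115 and 67.9. Of 6 mitochondrial antioxidant genes, Prdx5 had 239 and 586 (ratio 2.45, 2.39 to 2.51) and Sod2 114 and 184 (ratio 1.62), both higher in the TAC library. The tricarboxylic acid cycle list had a median of 0.11 over 17, and its single member past 1.5-fold, Pcx (1.28 and 0.845), had an interval that spans 1. The hypoxia-linked Higd1a had 65.6 and 109, the alternative subunit Cox4i2 0.774 and 1.98, and the testis isoform Cox6b2 8.66 and 4.37. The 3 muscle isoforms were lower in the TAC library in sum, 24.8 and 18.7, with Cox8b at 3.45 and 2.15, in the same direction as the cardiomyocyte markers.

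**Figure D2:**
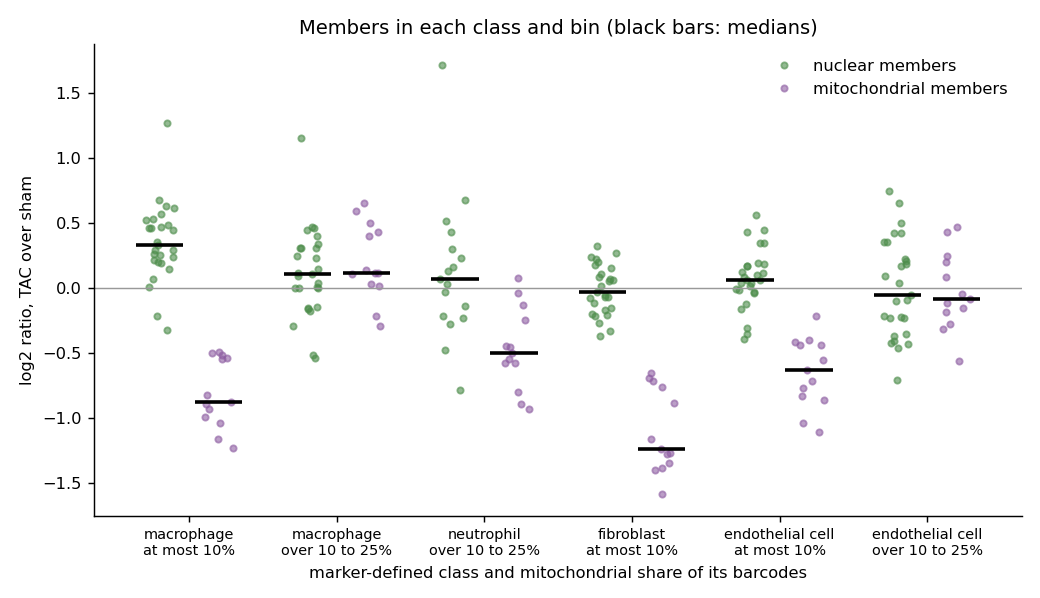
Log2 ratio TAC over sham of each nuclear and mitochondrial member with at least 20 UMIs, for the 6 class and mitochondrial-share sets compared, with the median of each group of members. In macrophage-gate barcodes of the lower range the nuclear median is 0.33 and the mitochondrial median -0.88, and in the upper range they are 0.11 and 0.12.

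The mitochondrial members differed in the opposite sense in macrophage-gate barcodes of the lower range, with a median log2 ratio of -0.88. At least 1.5-fold lower were 8 of 13, against 24.3% of non-mitochondrial genes. The summed level of the mitochondrial members is limited by the rule on mitochondrial share, which does not limit the other genes. This level and this count are therefore a description. In complex I, mt-Nd3 had 1550 CPM in sham and 660 in TAC (log2 ratio -1.23), mt-Nd2 had 5625 and 2946 (-0.93), and mt-Nd4l had 785 and 444 (-0.82). Less far apart were mt-Nd5 with 1189 and 832 (-0.52), mt-Nd1 with 3782 and 2670 (-0.50) and mt-Nd4 with 5774 and 4106 (-0.49). The light-strand gene mt-Nd6 had 55.9 and 38.6 (-0.54).

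Of the catalytic core of complex IV, mt-Co1 had 12242 and 8401 CPM (-0.54), mt-Co2 13585 and 7398 (-0.88) and mt-Co3 15713 and 7880 (-0.996). The ATP synthase genes mt-Atp6 and mt-Atp8 had 15596 and 7578 (-1.04) and 325 and 145 (-1.16), and mt-Cytb of complex III had 7262 and 3907 (-0.89). The 13 log2 ratios thus spanned -1.23 to -0.49, so the genes were not lower by a common factor. Per UMI of a nuclear member there were 14.3 mitochondrial UMIs in sham and 6.25 in TAC, values that the same rule limits.

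Over 10 to 25% mitochondrial share, macrophage-gate barcodes showed a smaller difference of the nuclear members, with a median of 0.11 and 18 of 27 above 1, against 52.2% of all genes and 55.8% of those at 50 or more CPM. One member, Cycs, was at least 1.5-fold higher (20.1% of all genes were) and 0 were lower (16.9% were). Cycs had 97.8 CPM in sham and 218 in TAC, a ratio of 2.23 (2.03 to 2.44), close to that in the lower range. Cox5a had 246 and 341 and Cox5b 285 and 392. The lowest were again Ndufs1 with 21.8 and 14.8 (log2 ratio -0.54) and Sdha with 64.7 and 45.2 (-0.51), joined by Cox4i1 with 726 and 593 (-0.29). Mitochondrial UMIs per nuclear-member UMI were 29.5 and 31.2, and the mitochondrial median was 0.12, both limited by the rule on mitochondrial share.

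In the other classes the nuclear medians lay between -0.05 and 0.07, and the difference from the macrophage gate was not tested. In fibroblast-gate barcodes of the lower range (179 sham, 226 TAC) the nuclear median was -0.03, 13 of 27 were above 1 against 37.9% of genes, and none was past 1.5-fold in either direction, where 9.40% of all genes were higher and 20.9% lower. Cycs was highest with 123 and 154 (0.33; ratio interval 1.06 to 1.49), then Cox5a with 171 and 206 (0.27) and Uqcrfs1 with 63.4 and 74.99 (0.24). Lowest were Ndufs1 with 34.4 and 26.7 (-0.37), Ndufa5 with 205 and 163 (-0.33) and Ndufb9 with 303 and 252 (-0.27). All 13 mitochondrial members were at least 1.5-fold lower in the TAC library there, with a median of -1.23, and mitochondrial UMIs per nuclear-member UMI were 13.5 and 6.26. These values are limited by the rule on mitochondrial share and are a description. The median share of these barcodes was 7.49% in sham and 3.47% in TAC.

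In endothelial-gate barcodes of the lower range (71 sham, 375 TAC) the nuclear median was 0.06 and 18 of 27 were above 1 against 50.8% of genes, with 0 members past 1.5-fold either way against 17.4% of all genes higher and 16.3% lower. Sdhd (45.4 and 68.3), Cyc1 (68.1 and 94.0) and Uqcrfs1 (73.3 and 99.8) were highest, and the interval of each ratio spans 1. Without the added 0.5 UMIs, Sdhd's ratio was 1.504, just past the threshold. Ndufa4 was lowest with 513 and 391, a ratio of 0.761 (0.668 to 0.869), followed by Cox6c with 651 and 510 and Sdha with 97.8 and 79.5. In the upper range (394 and 120) the median was -0.05 and 13 of 27 were above 1 against 40.5% of genes, with 2 members at least 1.5-fold higher (13.2% of genes were) and 1 lower (27.4% were). Ndufv2 had 90.8 and 151 (ratio interval 1.10 to 2.44), Sdha 93.9 and 146 (1.03 to 2.29) and Uqcrfs1 89.3 and 125. At the low end Cox6c had 724 and 525 (0.595 to 0.876), while Ndufs1 (50 and 5 UMIs) and Uqcrc1 (102 and 13 UMIs) had intervals that span 1. Cycs had 194 and 223 in the lower and 208 and 219 in the upper range, within counting error in both.

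Neutrophil-gate barcodes over 10 to 25% (86 sham, 104 TAC) were shallow, and 17 of 27 nuclear members had enough UMIs. Their median was 0.07 and 10 of 17 were above 1 against 44.9% of genes, with 2 at least 1.5-fold higher against 20.1% of genes and 1 lower against 22.5%. Ndufv2 had 3 UMIs in sham and 21 in TAC (ratio 3.73, 1.11 to 19.6), followed by Sdhb with 6 and 19 and Ndufb8 with 9 and 25. Ndufa1 (22 and 24 UMIs), Sdhd (11 and 15) and Uqcrq (40 and 62) had the lowest ratios of the CPM values. Apart from Ndufv2, each of these intervals spans 1, so differences of this size were not detectable at this depth. Cycs had 62.6 and 75.1 CPM on 12 and 27 UMIs.

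Within a library, nuclear members were lower in macrophage-gate barcodes of higher mitochondrial share. In sham the median log2 ratio of the upper over the lower range was -0.17, and all 27 members were below 1 against 60.7% of all genes, 0 of them 1.5-fold lower (8.27% of genes) or higher (3.16%). In TAC it was -0.39, with all 27 below 1 against 41.9%, and 3 members were at least 1.5-fold lower, against 9.69% of genes, and 0 higher, against 22.2%. The 3 were Uqcrfs1 (107 in the lower and 67.4 in the upper range), Ndufb8 (258 and 164) and Cox8a (911 and 607). In sham the extremes were Cox5a (314 and 246) and Ndufa2 (314 and 307), and in TAC Ndufa5 was nearest to level (147 and 130).

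**Figure D3:**
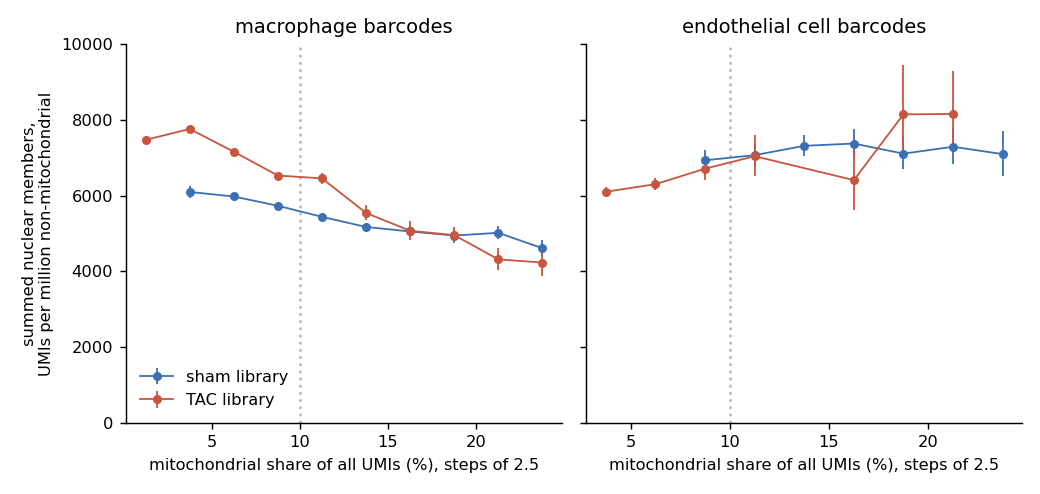
Summed level of the 27 nuclear members, in CPM, by steps of 2.5 percentage points of mitochondrial share, for macrophage- and endothelial-gate barcodes of each library, with 95% Poisson intervals and only steps with at least 20 barcodes (lines join neighbouring plotted steps). The TAC macrophage line starts at 7468 and ends at 4230, and the sham line runs from 6094 to 4609, so the lines cross.

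In steps of 2.5 percentage points, the summed nuclear level in macrophage-gate barcodes went from 6094 CPM at 2.5 to 5% to 4609 at 22.5 to 25% in sham, and from 7757 to 4230 in TAC. TAC was above sham up to 12.5 to 15% (5540 and 5170), level with it from 15 to 20% (5068 and 5051, then 4954 and 4943), and below it at 20 to 22.5% (4314 and 5015). Other RNA classes moved along the same steps. Malat1, a nuclear noncoding RNA, went from 21157 to 38950 CPM in sham and, from its lowest step, from 17850 to 79788 in TAC. Cytosolic ribosomal messages went from 163951 to 160477 in sham and from 170630 to 91957 in TAC. Cardiomyocyte markers in the upper against the lower range had 292 and 165 in sham and 401 and 97.0 in TAC. In TAC 12 of 13 were at least 1.5-fold higher, against 22.2% of all genes. Depth also differed along the steps, down to a median of 2323 UMIs in the last TAC step. Muscle isoforms of the chain had 38.1 and 24.8 in sham and 47.8 and 18.7 in TAC. The part of depth, Malat1 content and cardiomyocyte RNA in the slope was not tested.

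Endothelial-gate barcodes had medians above 0 in both libraries, which were near 0 without the barcodes up to 7.5%. Their nuclear median of the upper over the lower range was 0.22 in sham, with 24 of 27 above 1 against 65.5% of genes, and 0.22 in TAC, with 17 of 27 against 48.6%. At least 1.5-fold higher was 1 member in sham (Ndufs1, 16.6% of genes were; Cyc1, at 1.51 without the added 0.5 UMIs, is on the threshold) and 1 in TAC (Sdha, 16.2%), and 0 were lower (6.63% and 18%). These counts are below the background shares and are no result about the members. In sham Ndufs1 (22.7 and 38.2), Cyc1 (68.1 and 103) and Ndufa1 (119 and 172) were farthest above 1, and in TAC Sdha (79.5 and 146), Ndufv1 (69.4 and 98.9) and Ndufv2 (107 and 151). Of these, Ndufs1 in sham and Ndufv1 and Ndufv2 in TAC had intervals that span 1. Farthest below were Sdhc in sham (68.1 and 57.2) and Sdhd in TAC (68.3 and 47.3), both with intervals that span 1. Uqcrb in TAC (447 and 348) was below 1 with an interval of 0.614 to 0.975. By steps, the sham sum was 6929 CPM at 7.5 to 10%, between 7065 and 7372 from 10 to 22.5% and 7093 at 22.5 to 25%, all with overlapping intervals. The 20 sham barcodes up to 7.5% had 5294 (5000 to 5601). With the lower range limited to 7.5 to 10%, an alternative added after the data were seen, the median was 0.0777 in sham and 0.0058 in TAC, and the macrophage medians were -0.15 and -0.19. Cardiomyocyte markers were higher in the upper range here too, 2052 against 1498 CPM in sham and 2576 against 1065 in TAC.

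**Figure D4:**
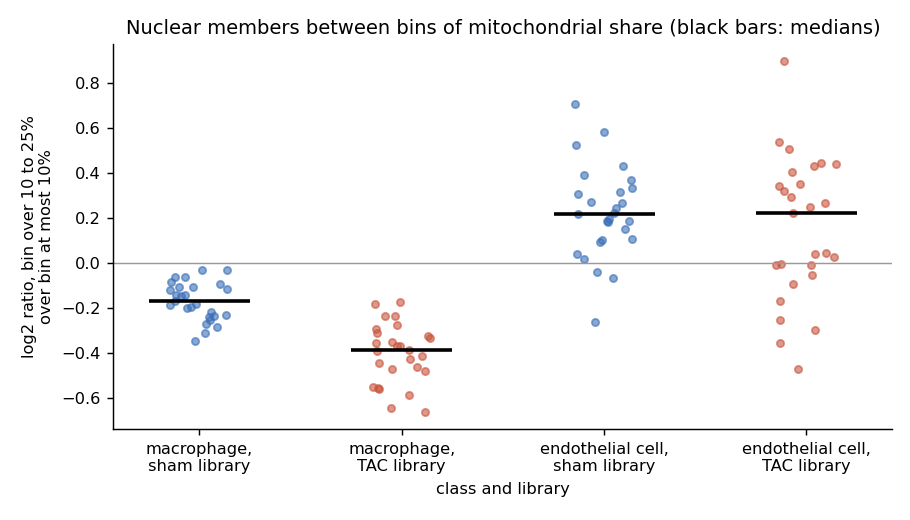
Log2 ratio of each nuclear member between the upper (over 10 to 25%) and lower (at most 10%) range of mitochondrial share, within each library, for macrophage- and endothelial-gate barcodes. Macrophage medians are -0.17 in sham and -0.39 in TAC, and endothelial medians are 0.22 in both.

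The make-up of the mitochondrial UMIs, each gene as a share of the 13, does not enter the rule on mitochondrial share, and it differed between the libraries in the same way in all 6 class sets. mt-Nd4 took 6.46% to 6.92% of mitochondrial UMIs in the sham sets and 8.73% to 9.44% in the TAC sets, with ratios of 1.26 to 1.41. mt-Nd1 (ratios 1.20 to 1.29), mt-Nd5 (1.12 to 1.35) and mt-Co1 (1.12 to 1.31) were also higher in all 6. mt-Nd3 took 1.86% to 2.14% in sham and 1.40% to 1.54% in TAC, ratios 0.714 to 0.769. Also lower in all 6 were mt-Atp8 (0.698 to 0.851), mt-Co3 (0.840 to 0.902), mt-Atp6 (0.863 to 0.926), mt-Co2 (0.909 to 0.967) and mt-Cytb (0.955 to 0.995). The intervals excluded 1 in all 6 sets for each gene named so far except mt-Atp8 (5 sets) and mt-Cytb (3 sets). mt-Nd2 (0.916 to 1.08) and mt-Nd4l (0.942 to 1.02) lay on both sides of 1, and mt-Nd6 was above 1 in 5 of 6 (0.766 to 1.44). The shares of the 13 genes add up to a fixed total, so higher shares of some genes force lower shares of others. The ratios are therefore not independent of each other. The classes of a library share its preparation, so the 6 sets are not replicates.

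**Figure D5:**
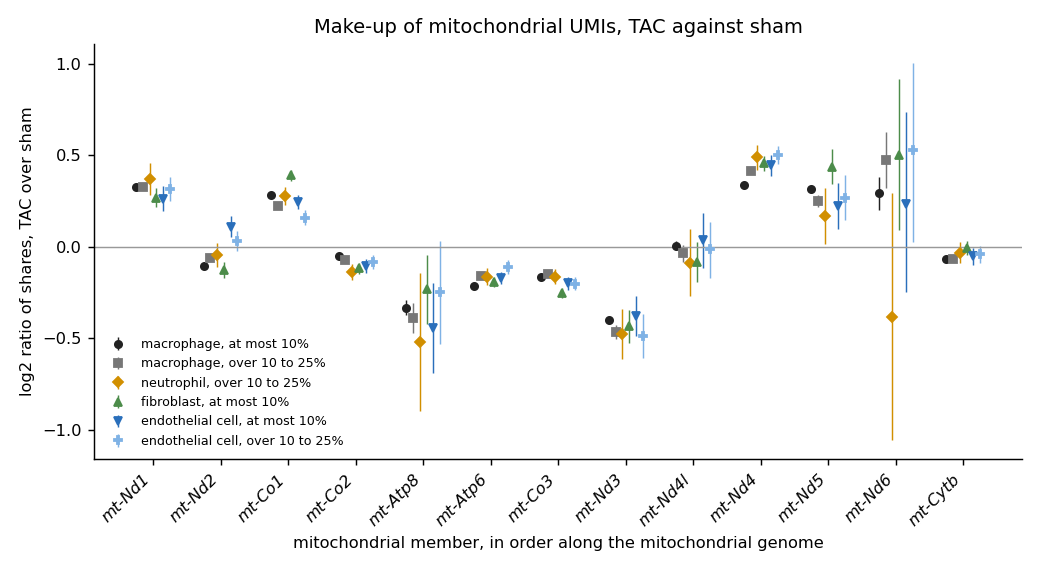
Log2 ratio TAC over sham of each mitochondrial gene's share of mitochondrial UMIs, in genome order, for the 6 class sets, with 95% intervals from counting error. mt-Nd4 is above 0 and mt-Nd3 below 0 in every set, and mt-Co2 to mt-Nd3, 5 neighbours, are all below 0.

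Of the genes lower in all 6 sets, the 5 other than mt-Cytb, namely mt-Co2, mt-Atp8, mt-Atp6, mt-Co3 and mt-Nd3, are neighbours in that order on the mitochondrial genome. They are 684, 204, 681, 784 and 348 bases long, whereas the genes higher in all sets, mt-Nd1, mt-Co1, mt-Nd4 and mt-Nd5, are 957, 1545, 1378 and 1824. mt-Cytb, also lower in all 6, is 1144 bases long, so the lengths do not separate the groups fully. Over the 13 genes, length and the log2 make-up ratio had a Pearson r of 0.658 and a Spearman rho of 0.571 in macrophage-gate barcodes of the lower range. Across the 6 class sets r ran from 0.523 to 0.785 and rho from 0.4945 to 0.824. They are given without a p since all points come from the same libraries. Between the ranges of mitochondrial share within a library the make-up differed less: in macrophage-gate barcodes mt-Nd4's ratio was 0.985 in sham and 1.04 in TAC, mt-Nd3's 1.07 and 1.03, and the largest of these named shifts was mt-Co1's, 0.928 and 0.890.

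Some of these genes share bases, which is shown because it makes the split of their counts uncertain. mt-Atp8 and mt-Atp6 overlap by 43 bases, and mt-Nd4l and mt-Nd4 by 7, in capitals below with 20 bases either side (GRCm38, plus strand, chrM:7907-7989 and chrM:10147-10193).
mt-Atp8 and mt-Atp6: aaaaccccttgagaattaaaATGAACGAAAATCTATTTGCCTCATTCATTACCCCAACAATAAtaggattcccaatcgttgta
mt-Nd4l and mt-Nd4: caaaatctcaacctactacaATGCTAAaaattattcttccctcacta

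In both pairs the capitals open with the ATG of the downstream gene and close with the stop codon of the upstream gene, so each pair is read from 1 bicistronic messenger RNA. The partners did not keep a common ratio: mt-Nd4 was higher in share in all 6 sets and mt-Nd4l was not, while mt-Atp8 and mt-Atp6 were both lower. The last 30 bases of 4 genes are shown next, because several mitochondrial genes end without a complete stop codon, which the tail of adenines supplies. Capitals mark the bases of the last codon.
mt-Nd4: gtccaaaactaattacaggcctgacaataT
mt-Co3: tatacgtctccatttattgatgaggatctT
mt-Cytb: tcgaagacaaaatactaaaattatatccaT
mt-Nd3: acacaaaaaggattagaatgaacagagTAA

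The 3 genes with an incomplete stop did not share a direction: mt-Nd4 was higher in TAC make-up, mt-Co3 lower and mt-Cytb near level, with ratios of 0.955 to 0.995. mt-Nd3, with a complete stop, had the lowest make-up ratio of the 13 in macrophage-gate barcodes of both ranges.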

How the data were processed

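The deposited values were whole-number UMI counts per gene and barcode in 2 matrices, 1 per group. Cell Ranger 3.0 and build mm10 are named in the submitters' processing notes, but the sources used here give neither the rule for calling barcodes nor which transcript end the kit reads. All 40 members and every gene list were chosen with earlier results of these data known. Barcodes needed at least 300 genes. A barcode passed a gate where 8 markers per 10000 non-mitochondrial UMIs reached 1/10 of their 99th percentile over both libraries, and at least 20, a floor added after the data were seen (2237 macrophage-gate barcodes had passed the B-cell gate without it, 239 with it). Barcodes in several gates were left out, no doublet caller was run, and 234 barcodes lay near the macrophage cut of 40.3. UMIs were summed per class, range and library, where both libraries had at least 50 barcodes. That left out T cells, B cells, neutrophils of the lower and fibroblasts of the upper range. Ratios have exact conditional binomial intervals (95%), levels Poisson intervals, and log2 ratios add 0.5 UMIs. With 1 library per group no test was run. All 40 members are named in macrophages of the lower range. Elsewhere the 3 highest and 3 lowest nuclear members with at least 20 UMIs are named, and of other lists up to 4 each way past 1.5-fold. Values for Cycs, AA467197, Acod1 and Ucp2 in other sets were added after they were seen. Scripts used Python 3.11.15 with pandas 2.3.3, numpy 2.4.6, matplotlib 3.10.9 and scipy 1.17.1, and were tested on simulated data.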

Additional observations from a re-analysis of the deposited data

Results flagged for a closer look

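The nuclear members' contrast between ranges of mitochondrial share had opposite signs in the 2 classes that could be compared. The median log2 ratio of the upper over the lower range was -0.17 in sham and -0.39 in TAC for macrophage-gate barcodes, and 0.22 in sham and 0.22 in TAC for endothelial-gate barcodes. The difference between the classes was not tested. With the lower range limited to barcodes over 7.5%, the endothelial medians were 0.0777 and 0.0058, which in sham leaves out 20 of 71 barcodes.

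Barcodes that enter none of the comparisons showed the same make-up difference of mitochondrial UMIs. In barcodes with a mitochondrial share over 25%, mt-Nd4 took 6.49% of mitochondrial UMIs in sham and 8.92% in TAC. In barcodes with fewer than 300 genes it took 6.26% and 9.47%. With 1 library per group, library and operation cannot be told apart for this pattern.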

How the results depend on the processing

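In macrophage-gate barcodes of the lower range the nuclear median stayed between 0.24 and 0.48 and Cycs between 1.06 and 1.42 (log2) over 17 alternatives, 6 of them added after the data were seen. A further added one, the lower range from 7.5%, bears on the range contrast alone. mt-Nd3 was lower and mt-Nd4 higher in make-up in every set and alternative that gave a value. No paired analysis was possible because each group is 1 library and no test was run. With few neutrophil, fibroblast and endothelial barcodes, depth limits what those classes can show, and some alternatives gave them no value.

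Other values that differed from those reported follow, all log2 unless a count. The log2 ratio of mitochondrial to nuclear-member UMIs (TAC over sham, macrophage gate, lower then upper range) was -1.02 and -0.0953 with the edge at 8%, -0.89 and -0.00411 in the depth window, -1.12 and -0.19 without resident genes, -1.22 and 0.16 with them, -1.09 and 0.18 with barcodes weighted equally, -1.21 and 0.0179 with the gate at 1/5, and -1.08 and 0.24 thinned to 1000 UMIs. In the lower range alone it was -1.15 with the gate at 1/20, -1.14 without monocyte markers and -1.18 without the gate floor. The upper over the lower range of nuclear members was -0.26 (macrophage sham), -0.55 (macrophage TAC) and 0.0898 (endothelial sham) with all UMIs as denominator. It was -0.51 (macrophage TAC) and 0.0591 (endothelial sham) centred on all genes, -0.10 (sham) and -0.20 (TAC) in the window of 5000 to 15000 UMIs, -0.32 (TAC) with the gate at 1/5, -0.36 (sham) without resident genes and -0.48 (TAC) thinned, and -0.19 (macrophage TAC) and 0.0777 (endothelial sham) with the lower range from 7.5%. The nuclear TAC over sham median was 0.12 in fibroblasts when centred, 0.33 in upper-range macrophages without resident genes, -0.0717 there and 0.19 in lower-range endothelial barcodes when thinned, and -0.23 in neutrophils without cardiomyocyte-marker barcodes. The mitochondrial median was -0.34 in upper-range endothelial and 0.0143 in upper-range macrophage barcodes with the edge at 8%, and 0.0104 in the latter without resident genes. The count of macrophage nuclear members 1.5-fold higher was 12 when centred, 1 in the depth window, and 2 with the gate at 1/20, without resident genes and when thinned.

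Named genes whose reported interval excluded 1 and whose ratio changed sign were Cox4i1 (-0.0363 in the depth window, -0.0173 thinned), Ndufb9 (-0.0514 and -0.0330) and Ndufs1 (0.0122 thinned) in lower-range macrophages, Cox5a in fibroblasts (-0.0855 in the depth window, -0.42 thinned), Rpl3l (-0.17 without monocyte markers), and, for the TAC range contrast, Uqcrc1 (0.18 in the depth window, 0.15 with the lower range from 7.5%) and Ndufa5 (0.00234 with the edge at 8%). Others changed sign from a reported interval that spans 1, among them Ndufa4 in lower-range macrophages (-0.13 to 0.16) and Cycs in neutrophils (-0.34 to 0.32). The causes were not tested.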
